A study of Mus musculus with 9 samples.

Results

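The angiotensin and endothelin systems were followed through 8 listed genes in the aorta of male mice. The members were all probe sets that the array's annotation pairs with exactly 1 gene, that gene being Agt, Ace, Agtr1a, Agtr2, Lnpep, Edn1, Ece1 or Ednrb, and the probe set with the highest mean over all 9 arrays stood for its gene. This gave 7 genes of 18193 named in all, on 12 of 45037 probe sets. Of these genes, 3 had more than 1 probe set and 4 had 1. Lnpep, an aminopeptidase that cleaves and binds angiotensin fragments, was not named by that annotation, so its expression is not analysed here. The mutant mice were BMAL-/- (4 arrays, F02, F03, F05 and F08), named for the loss of the clock activator BMAL1, the product of Arntl. The controls were BMAL+/+ (5 arrays, F01, F04, F07, F09 and F10). The labels describe both strains as partially backcrossed onto C57Bl/6J, so the rest of the genome need not be the same in both. All mice had at least 2 weeks in cycles of 12 h light and were kept in the dark for at least 30 h, and the aorta was taken at ZT14. The labels give the dissected stretch both as the thoracic aorta and as reaching from the arch to beyond the femoral branches, and the vessel had been flushed with buffer. They number the arrays as replicates without saying whether each came from its own mouse, so the p-values measure the spread between these samples. No age is given. The source name of F01 says BMAL-/-, while its title and strain say BMAL+/+, which was followed.

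Angiotensinogen, the product of Agt, is cut by renin to angiotensin I, which angiotensin-converting enzyme (Ace) on the surface of endothelial cells turns into angiotensin II. Angiotensin II contracts smooth muscle through the AT1 receptor, which mice make from the genes Agtr1a and Agtr1b, and the AT2 receptor (Agtr2) is generally held to oppose it. Endothelin-1 (Edn1) is released by endothelium as a precursor that endothelin-converting enzyme (Ece1) activates. It contracts smooth muscle through the A receptor (Ednra), while the B receptor (Ednrb) on endothelium clears it and releases nitric oxide. Both systems are known for setting vascular tone and blood pressure.

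BMAL1 binds E-boxes, of which the palindrome CACGTG is the classical form. The 250 bases before each annotated transcription start were searched for it on RefSeq sequence of build GRCm38.p6. This gave 11 such windows for 7 of the 8 listed genes, Lnpep among them, and none for Agtr1a. Ece1 had 4 of the 11. Of all 32851 windows, 6.0% held the motif, and 11 are too few to tell a difference from that share. The motif lay in 1 of the 11. That window, at chr4:137913308-137913557 on the plus strand, is the third of 4 annotated starts of Ece1, inside the gene body of the longer transcripts, and the motif begins at position -90 from the start. It is shown with the windows of Ace (first start, chr11:105967698-105967947, plus strand) and Edn1 (chr13:42301226-42301475, plus strand), whose brightest probe sets were lower in BMAL-/- with no overlap of the groups in the 7 arrays described below, though neither passed the test. Capitals mark CACGTG. The match is a description of these letters and not a binding site.
Ece1: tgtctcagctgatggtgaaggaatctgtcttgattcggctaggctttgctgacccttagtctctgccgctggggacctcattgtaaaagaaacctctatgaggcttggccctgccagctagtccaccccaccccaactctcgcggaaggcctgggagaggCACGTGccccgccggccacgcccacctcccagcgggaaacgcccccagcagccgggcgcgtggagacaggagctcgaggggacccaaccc
Ace: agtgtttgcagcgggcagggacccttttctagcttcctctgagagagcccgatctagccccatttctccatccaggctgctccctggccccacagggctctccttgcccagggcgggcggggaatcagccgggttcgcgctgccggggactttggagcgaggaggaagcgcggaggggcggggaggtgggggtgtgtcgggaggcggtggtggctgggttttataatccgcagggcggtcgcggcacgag
Edn1: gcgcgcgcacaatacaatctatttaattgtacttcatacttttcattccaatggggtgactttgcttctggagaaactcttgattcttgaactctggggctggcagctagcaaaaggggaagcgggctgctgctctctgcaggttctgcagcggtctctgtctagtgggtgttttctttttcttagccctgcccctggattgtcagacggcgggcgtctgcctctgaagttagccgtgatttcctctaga

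The deposited values are log2 expression, with array medians between 3.13 and 3.24. Of all values, 44.0% lay between 2 and 3, a floor near which differences between arrays are compressed. F04 and F05 went against their labels at clock genes. Arntl read 2.77 on F05, against 5.87, 6.21 and 6.05 on the BMAL-/- arrays F02, F03 and F08. It read 6.67 on F04, against 2.74 to 2.82 on the other BMAL+/+ arrays. On the other 7 arrays it thus read higher in BMAL-/-, and the sources do not say whether its target lies in the deleted stretch. Npas2 read 3.40 on F05, against 7.90 to 8.52 on F02, F03 and F08. It read 8.36 on F04, against 3.37 to 3.40 on the other BMAL+/+ arrays. Nr1d2 read 11.21 on F05, against 5.08 to 5.89 on F02, F03 and F08. It read 5.81 on F04, against 10.39 to 11.69 on the other BMAL+/+ arrays. Each result is therefore given for the 9 arrays as labelled and for the 7 arrays without F04 and F05. That leaves 3 BMAL-/- and 4 BMAL+/+ arrays. Smooth muscle markers were high on every array, with a mean of 6 markers between 10.69 and 12.45. Markers of fat were high too, with a mean of 4 markers between 12.92 and 14.43. Skeletal muscle markers averaged between 3.86 and 11.37 and heart muscle markers between 5.12 and 10.43, with a wide spread within each genotype.

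None of the 7 genes passed the test. In limma, with p-values adjusted over all 45037 probe sets and a threshold of 0.05, 0 of the 7 were called as labelled and 0 in the 7 arrays, where 0% and 0.00888% of all probe sets were called. At an unadjusted p under 0.05 none of the 7 was found as labelled, and Ace and Edn1 were found, both lower, in the 7 arrays. For all probe sets that share was 0.750% lower and 7.92% higher as labelled, and 3.70% lower and 20.0% higher in the 7 arrays. The groups as labelled overlapped at every one of the 7 genes, and they did not overlap at 0.127% (lower) and 0.646% (higher) of all probe sets. In the 7 arrays they did not overlap at 3 of the 7 genes, with Ace and Edn1 lower and Agtr2 higher in BMAL-/-. The background there was 2.59% lower and 14.9% higher, and 5.04% lower among probe sets above the median brightness, where 5 of the 7 genes lay. The median log2 difference of the 7 genes was -0.009 as labelled and -0.001 in the 7 arrays, against 0.028 and 0.0383 over all probe sets, and both values are that of Agt, which lay at the floor. Over all 12 member probe sets the medians were -0.143 and -0.202. Over the 5 genes above the median brightness they were -0.276 and -0.397, against 0.000225 and 0.00704 over all such probe sets.

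**Figure D1:**
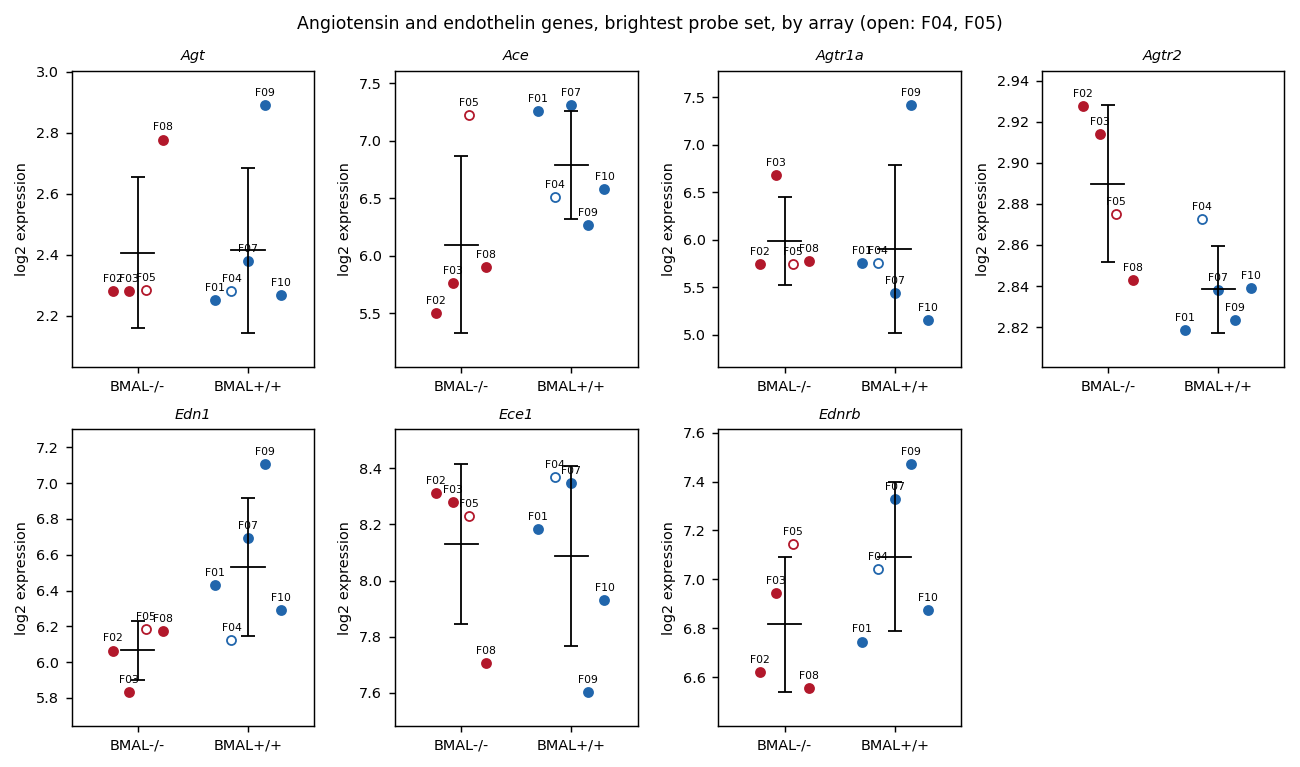
Log2 expression of the 7 genes at their brightest probe set, 1 point per array, with BMAL-/- left of BMAL+/+. Bars are the mean ± SD of each group as labelled and open points are F04 and F05. The BMAL-/- arrays F02, F03 and F08 lie below every BMAL+/+ array for Ace, and the scales of Agt and Agtr2 span under 1 unit near the floor.

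The precursor of angiotensin lay at the floor on every array. Agt read 2.28, 2.28, 2.28 and 2.78 on the BMAL-/- arrays F02, F03, F05 and F08. It read 2.25, 2.28, 2.38, 2.89 and 2.27 on the BMAL+/+ arrays F01, F04, F07, F09 and F10. No direction is given for a gene at these levels, and its difference was -0.01 ± 0.16 (SE) as labelled. The highest value of each genotype, on F08 and F09, came from the arrays with the highest mean of the fat markers in their genotype, at 14.02 and 14.43. F10, with the next highest fat mean at 13.88, read only 2.27. Perivascular fat is a known site of Agt expression in mice, and the part of fat content in these values was not tested.

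Ace lay lower on 3 of the 4 BMAL-/- arrays than on any BMAL+/+ array. Its brightest probe set read 5.50, 5.77 and 5.90 on F02, F03 and F08 and 7.22 on F05, the array that goes against its BMAL-/- label. The BMAL+/+ values were 7.26, 7.31, 6.27 and 6.58 on F01, F07, F09 and F10, and 6.51 on F04. As labelled BMAL-/- averaged 6.10 ± 0.77 (SD, n = 4), against 6.79 ± 0.47 for BMAL+/+ (SD, n = 5). This gave a difference of -0.69 ± 0.38 (SE, adjusted p = 0.37 in limma), and the groups overlapped through F05 alone. This value was -1.065 without F05, -0.341 with F01 in BMAL-/- and -0.077 with array weights. Without F04 and F05 BMAL-/- averaged 5.72 ± 0.20 (SD, n = 3), against 6.86 ± 0.51 for BMAL+/+ (SD, n = 4). The difference of -1.13 ± 0.29 (SE), or 0.456 times the BMAL+/+ level, had an unadjusted p of 0.00671 and an adjusted p of 0.208 in limma.

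The second Ace probe set gave the same order in the 7 arrays. It read 4.71, 5.73 and 5.58 on F02, F03 and F08, against 5.87, 6.42, 6.21 and 6.23 on F01, F07, F09 and F10, so these groups did not overlap either. F05 read 6.25 on it and F04 read 5.76. Its difference was -0.53 ± 0.29 (SE) as labelled and -0.84 ± 0.28 (SE) in the 7 arrays, with limma adjusted p of 0.371 and 0.208. Both probe sets measure 1 gene on the same arrays and are not independent samples. The brighter one passed in the 7 arrays with array weights (adjusted p = 0.0388) and without F08 (adjusted p = 0.0462), settings in which 15448 and 16445 of all probe sets passed as well, and over all its alternatives the adjusted p ran from 0.0388 to 0.527.

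Agtr1a did not differ by more than the spread between arrays, and Agtr2 lay at the floor. Agtr1a read 5.75, 6.68, 5.75 and 5.77 on the BMAL-/- arrays F02, F03, F05 and F08. It read 5.75, 5.75, 5.44, 7.42 and 5.16 on the BMAL+/+ arrays F01, F04, F07, F09 and F10. Both the highest and the lowest array were BMAL+/+, and the BMAL-/- arrays other than F03 lay within 0.03 of each other. The difference was 0.08 ± 0.45 (SE) as labelled and 0.13 ± 0.57 (SE) in the 7 arrays, with limma adjusted p of 0.923 and 0.893. Its sign changed with the arrays left out.

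Agtr2 is mainly a fetal receptor. It read between 2.84 and 2.93 in BMAL-/- and between 2.82 and 2.87 in BMAL+/+. The groups did not overlap in the 7 arrays, yet the difference there was only 0.06 ± 0.03 (SE), against a median of 0.0383 over all probe sets. After quantile normalization it was 0.003 and after centring on 1 median 0.009, so that no direction is drawn. Agtr2 also passed with array weights (adjusted p = 0.0331) and without F08 (adjusted p = 0.0164), the same settings as for Ace.

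Endothelin-1 had lower readings in BMAL-/- with a small separation. Edn1 read 6.07, 5.84, 6.19 and 6.18 on the BMAL-/- arrays F02, F03, F05 and F08. It read 6.43, 6.12, 6.69, 7.11 and 6.29 on the BMAL+/+ arrays F01, F04, F07, F09 and F10. As labelled, F04 was the only BMAL+/+ array to lie below a BMAL-/- one, and F05 lay among the other BMAL-/- arrays, unlike for Ace. As labelled, BMAL-/- averaged 6.07 ± 0.16 (SD, n = 4), against 6.53 ± 0.39 for BMAL+/+ (SD, n = 5). The difference was -0.46 ± 0.20 (SE), 0.725 times the BMAL+/+ level, with an unadjusted p of 0.0503 and an adjusted p of 0.37 in limma. In the 7 arrays it was -0.60 ± 0.22 (SE), with an unadjusted p of 0.0316 and an adjusted p of 0.208 in limma. It stayed below 0 under each alternative run, between -0.564 and -0.318 as labelled and between -0.717 and -0.445 in the 7 arrays, and passed in none.

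**Figure D2:**
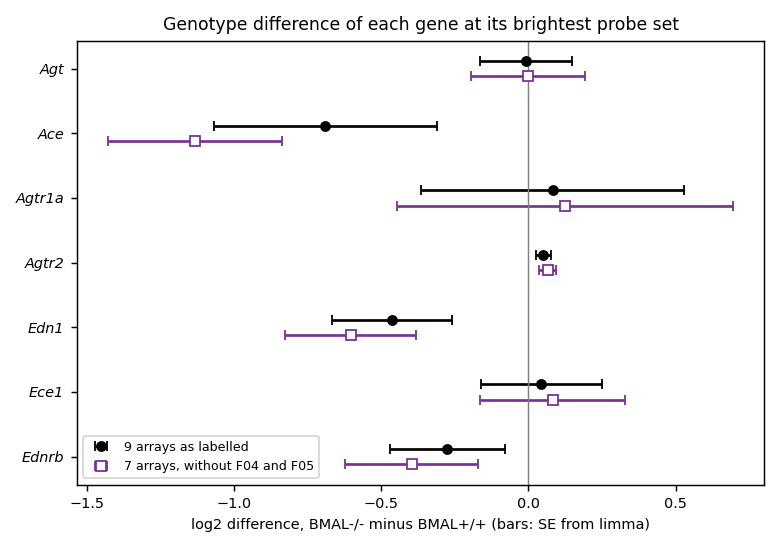
Log2 difference, BMAL-/- minus BMAL+/+, of each gene at its brightest probe set, with the SE from limma as bars, for the 9 arrays as labelled (filled) and the 7 arrays without F04 and F05 (open). Ace (-0.69 and -1.13) and Edn1 (-0.46 and -0.60) lie farthest below 0.

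Ece1 gave different answers on its probe sets. The brightest read 8.31, 8.28, 8.23 and 7.71 on F02, F03, F05 and F08, against 8.18, 8.37, 8.35, 7.60 and 7.93 on F01, F04, F07, F09 and F10. The groups overlapped and the difference was 0.04 ± 0.20 (SE) as labelled and 0.08 ± 0.25 (SE) in the 7 arrays. The second read 6.56, 7.65, 8.21 and 7.79 on the BMAL-/- arrays in the same order, against 8.19, 8.41, 8.50, 8.54 and 8.16 on the BMAL+/+ arrays.

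On this second probe set F02, F03 and F08 lay below every BMAL+/+ array, and F05 lay among them. Its difference was -0.81 ± 0.30 (SE) as labelled, with an unadjusted p of 0.0259, and -1.02 ± 0.32 (SE) in the 7 arrays, with limma adjusted p of 0.37 and 0.208. The third, dimmer, differed by 0.16 ± 0.19 (SE) as labelled and by -0.005 in the 7 arrays. The mean of the probe sets differed by -0.203 as labelled and -0.313 in the 7 arrays, the opposite sign of the brightest one. Ece1 has several annotated starts, one of them the window with CACGTG shown above, and the sources do not say which transcripts each probe set detects.

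**Figure D3:**
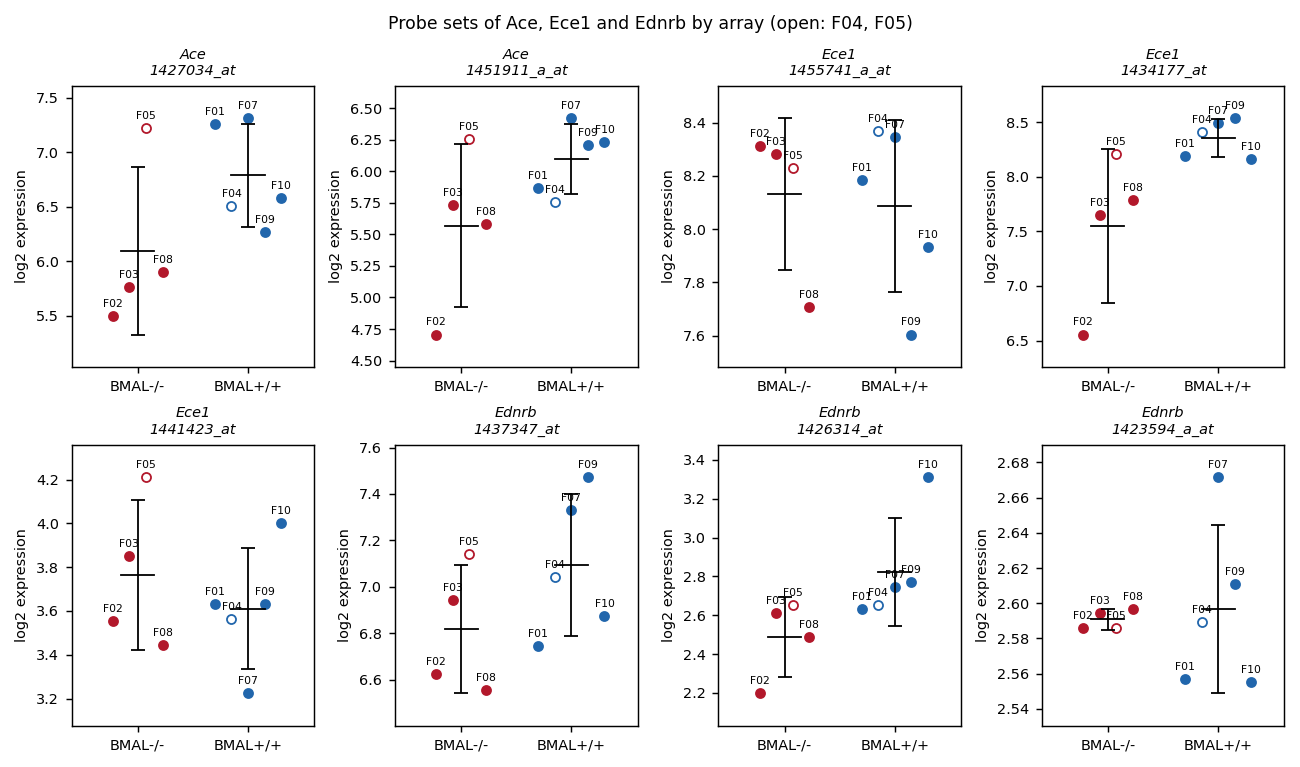
Log2 expression of every probe set of Ace, Ece1 and Ednrb, 1 point per array, with BMAL-/- left of BMAL+/+, bars at the mean ± SD of the groups as labelled and open points for F04 and F05. Both probe sets of Ace, the second of Ece1 and a dim one of Ednrb have F02, F03 and F08 below the BMAL+/+ arrays, while the other 2 of Ece1 and the other 2 of Ednrb do not.

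The endothelin B receptor was measured well above the floor on 1 of its 3 probe sets. Ednrb read 6.62, 6.94, 7.14 and 6.56 on the BMAL-/- arrays F02, F03, F05 and F08. It read 6.75, 7.04, 7.33, 7.47 and 6.87 on the BMAL+/+ arrays F01, F04, F07, F09 and F10. The groups overlapped with and without F04 and F05. The difference was -0.28 ± 0.20 (SE) as labelled and -0.40 ± 0.23 (SE) in the 7 arrays, with limma adjusted p of 0.433 and 0.27. As labelled it ran from -0.385 without F05 to -0.119 with array weights, and was -0.181 without F09. The other 2 probe sets lay between 2.20 and 3.31 on all arrays. On one of them F02, F03 and F08 (2.20, 2.61 and 2.49) lay below every BMAL+/+ array, with a difference of -0.43 ± 0.18 (SE) in the 7 arrays at an unadjusted p of 0.0476 and an adjusted p of 0.208 in limma. At such levels no size is read from it, and the remaining probe set differed by -0.006.

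Ace, Edn1, Ece1 and Ednrb are known to be expressed by endothelium, and the mean of the endothelial markers was lower on F02, F03 and F08 than on the BMAL+/+ arrays. The mean of 8 endothelial markers lay between 5.99 and 6.70 on the BMAL-/- arrays and between 6.62 and 6.97 on the BMAL+/+ arrays. Without F04 and F05 the ranges were 5.99 to 6.47 and 6.62 to 6.97. Of the 8, 6 were lower and 2 higher in BMAL-/- under both groupings, with none under 3 on every array. Among all probe sets above the median brightness, 50% were lower as labelled and 49.1% in the 7 arrays. In the 7 arrays Pecam1 differed by -1.94, Emcn by -1.435, Tie1 by -0.97, Esam by -0.47, Tek by -0.325 and Vwf by -0.06. Kdr differed by 0.98 and Cdh5 by 0.49. The groups did not overlap there at Pecam1 and Esam, which were lower, and at Kdr, which was higher. Over all probe sets 2.59% were lower and 14.9% higher without overlap in the 7 arrays. Smooth muscle markers averaged 10.69 to 12.20 in BMAL-/- and 11.34 to 12.45 in BMAL+/+, and all 6 had a negative difference. Without F04 and F05 these ranges almost touched, at 10.69 to 12.075 and 12.077 to 12.45. Without F04 and F05, fibroblast markers averaged 8.07 to 9.65 in BMAL-/- and 10.02 to 10.45 in BMAL+/+, and macrophage markers 5.86 to 6.73 in BMAL-/- and 7.29 to 8.26 in BMAL+/+. The median difference in the 7 arrays was -0.398 for endothelial, -1.18 for smooth muscle, -1.603 for fibroblast and -1.608 for macrophage markers. It was -2.119 for heart muscle and -0.356 for fat markers, whose means overlapped between the genotypes. Lower readings were thus not particular to endothelial markers. All 4 skeletal muscle markers had the opposite sign, with a median difference of 0.808 as labelled and 1.489 in the 7 arrays. The mean of the fat markers on F08, 14.02, was above that on every array but F09. The part of cell content in the differences of Ace, Edn1 and the second Ece1 probe set was not tested. In whole tissue, fewer endothelial cells, a different share of other dissected tissue and less RNA per cell cannot be told apart.

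**Figure D4:**
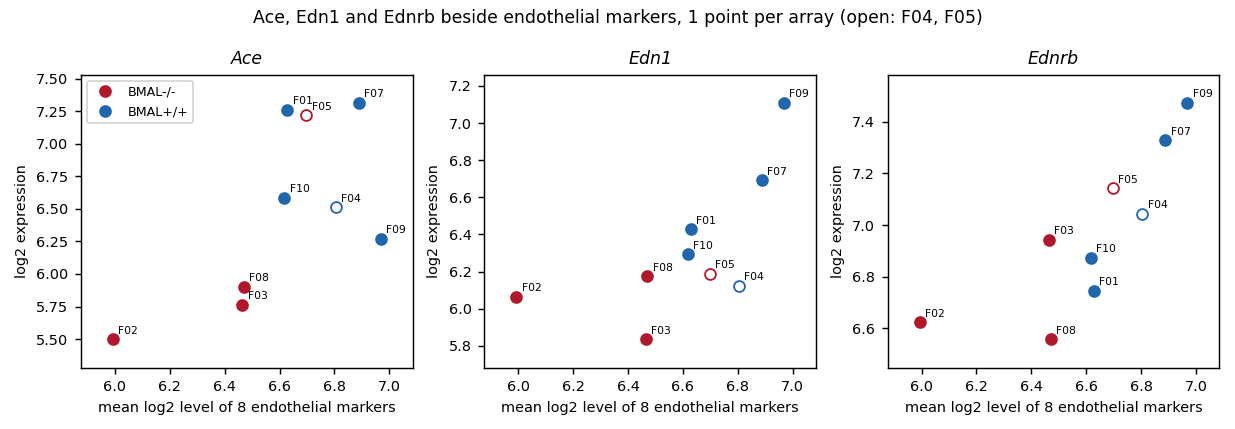
Log2 expression of Ace, Edn1 and Ednrb against the mean log2 level of 8 endothelial markers, 1 point per array, BMAL-/- in red and BMAL+/+ in blue, with F04 and F05 open. F02, F03 and F08 have the lowest marker means, from 5.99 to 6.47, and F09, with the highest at 6.97, has the highest Edn1 and Ednrb but not the highest Ace.

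Other genes of the renin-angiotensin system were taken from a list of 21, of which 17 had a probe set of their own. Ren1, Ren2 and Mrgprd, among others, are not analysed here. As labelled 10 of the 17 were lower and 7 higher in BMAL-/-, 0 passed, and 1 in each direction had an unadjusted p under 0.05. Over all probe sets 31.3% were lower as labelled, or 50% above the median brightness. At that p 0.750% of all probe sets were lower and 7.92% higher. In the 7 arrays 0 passed, 4 had an unadjusted p under 0.05 and were lower and 2 were higher, beside 3.70% lower and 20.0% higher over all probe sets. The groups did not overlap at 3 lower and 3 higher genes, beside 2.59% and 14.9%. Those that met both criteria were Cma1, Cpa3 and Ctsa among the lower and Enpep and Mas1 among the higher. Agtr1b, the second AT1 gene of mice, read 3.43 to 4.84 in BMAL-/- and 3.23 to 4.53 in BMAL+/+, and its difference was 0.06 ± 0.35 (SE) as labelled.

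Enpep encodes aminopeptidase A, which removes the first residue of angiotensin II. It read 8.90, 9.56, 8.14 and 9.42 on the BMAL-/- arrays F02, F03, F05 and F08. The BMAL+/+ arrays F01, F04, F07, F09 and F10 read 8.27, 9.24, 8.76, 7.86 and 8.06. Its highest arrays were thus F03, F08 and F04, and its difference was 0.57 ± 0.37 (SE) as labelled and 1.06 ± 0.27 (SE) in the 7 arrays, with limma adjusted p of 0.403 and 0.208. Mas1, the receptor of angiotensin 1-7, stayed between 2.83 and 3.19, near the floor, and its difference of 0.23 there is not read as a size.

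Chymase (Cma1) and carboxypeptidase A3 (Cpa3) are proteases of mast cell granules. Cma1 read 4.87, 4.87, 6.74 and 5.35 on F02, F03, F05 and F08, against 5.44, 5.41, 6.74, 6.65 and 6.57 on F01, F04, F07, F09 and F10. Cpa3 read 4.83, 4.95, 7.36 and 4.87 on the same BMAL-/- arrays, against 5.76, 6.33, 6.70, 5.86 and 6.42 on the BMAL+/+ arrays. Both were low on F02, F03 and F08, and F05 had the highest Cpa3 of all 9 arrays. The differences in the 7 arrays were -1.32 ± 0.34 (SE) for Cma1 and -1.30 ± 0.25 (SE) for Cpa3, each at an adjusted p of 0.208 in limma, and -0.70 and -0.71 as labelled. Kit, the third mast cell marker, differed by 0.42 in the 7 arrays. Whether mast cell content differed was not tested.

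Cathepsin A (Ctsa), a lysosomal carboxypeptidase, differed by -0.41 ± 0.16 (SE) as labelled and by -0.54 ± 0.17 (SE) in the 7 arrays, with limma adjusted p of 0.37 and 0.208. It read 8.06, 8.27, 8.67 and 8.57 on F02, F03, F05 and F08. The BMAL+/+ arrays F01, F04, F07, F09 and F10 read 8.67, 8.67, 8.85, 8.82 and 9.02, and the values of F01, F04 and F05 were the same. Its other, dimmer probe set differed by 0.25 in the 7 arrays, the opposite sign.

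Among the other endothelin genes, 4 of 5 were measured, with Ednra not named by the annotation. Endothelin-3 (Edn3), a ligand that binds mainly the B receptor, had groups that did not overlap in the 9 arrays as labelled. It read 6.55, 6.86, 7.18 and 6.90 on the BMAL-/- arrays F02, F03, F05 and F08. It read 6.09, 6.50, 6.36, 5.85 and 6.00 on the BMAL+/+ arrays F01, F04, F07, F09 and F10. F05 was the highest of all, and F04 was the highest BMAL+/+ array. The difference was 0.71 ± 0.18 (SE) as labelled, with an unadjusted p of 0.00339 and an adjusted p of 0.37 in limma, and 0.69 ± 0.17 (SE) in the 7 arrays, with an adjusted p of 0.208. This probe set has the suffix x, which marks probes that can match other transcripts. The other 3 Edn3 probe sets stayed between 2.15 and 3.20 and did not separate the groups, and Edn2 and Kel were under 3 on every array.

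Of 15 genes that couple these receptors to contraction, 14 were measured and none passed. In the 7 arrays 3 had an unadjusted p under 0.05, all lower, and Rgs5 was the one whose groups did not overlap. Over all probe sets 3.70% were lower at that p and 2.59% lower without overlap, or 5.04% above the median brightness. Rgs5, a brake on Gq signalling in smooth muscle and pericytes, read 11.67, 11.40, 13.28 and 12.36 on F02, F03, F05 and F08, against 13.19, 11.99, 13.10, 12.94 and 13.41 on F01, F04, F07, F09 and F10. F04 read near the 3 low BMAL-/- arrays and F05 among the high BMAL+/+ ones. Its difference was -0.75 ± 0.42 (SE) as labelled and -1.35 ± 0.24 (SE) in the 7 arrays, with limma adjusted p of 0.371 and 0.208. All 4 of its probe sets gave a negative difference, from -2.25 to -1.35 in the 7 arrays. The smooth muscle markers had a median difference of -1.18 in the 7 arrays, and the part of cell content in the Rgs5 difference was not tested. The G proteins Gnaq and Gna11, which pass on the signal of the AT1 receptor, differed there by -0.02 and 0.10, and were named after their values were seen.

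**Figure D5:**
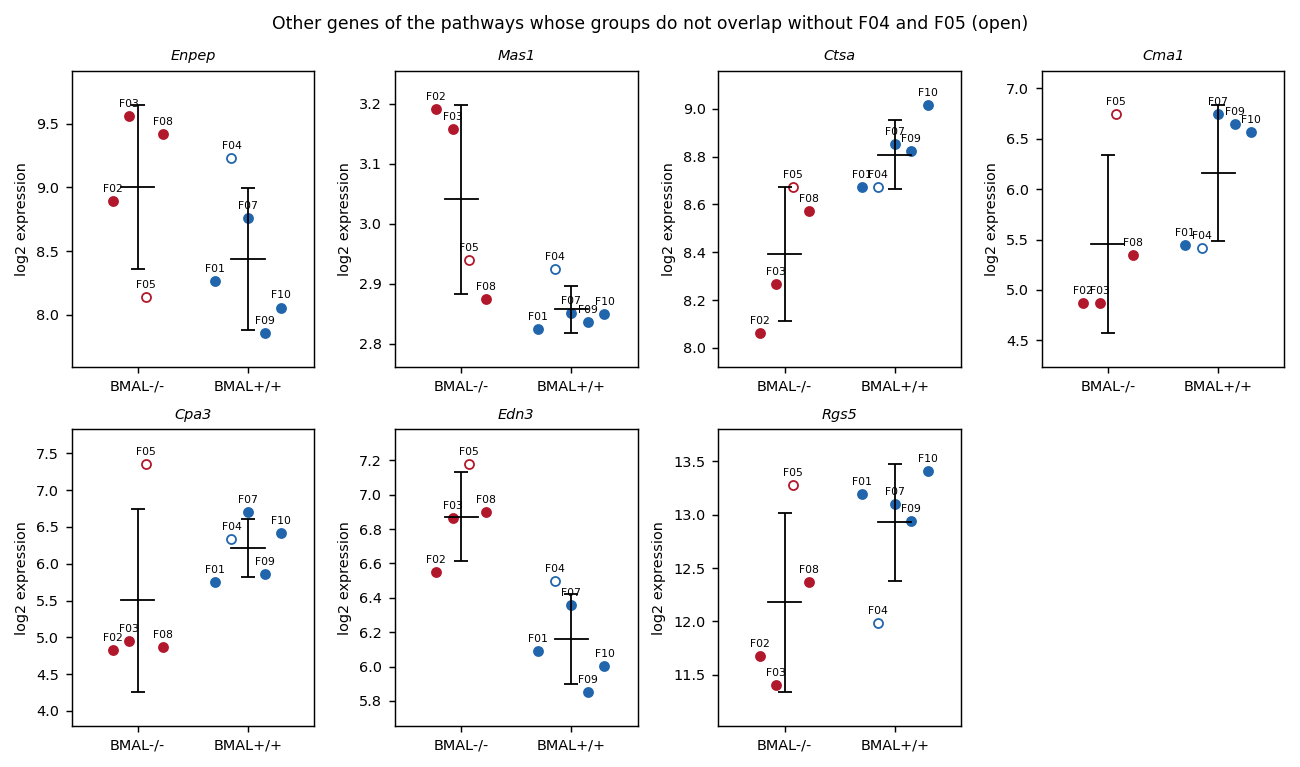
Log2 expression of the 7 other pathway genes that had an unadjusted p under 0.05 and no overlap of the groups in the 7 arrays, 1 point per array, with BMAL-/- left of BMAL+/+, bars at the mean ± SD of the groups as labelled and open points for F04 and F05. F05 stands with the BMAL+/+ arrays for Enpep, Ctsa, Cma1, Cpa3 and Rgs5, and with the BMAL-/- arrays for Edn3.

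The genes whose values followed each member most closely over the 9 arrays were searched among 11180 genes above the median brightness, with Pearson's r as the measure. Ace was closest to Zfand2a (r = 0.983) and Fgf7 (r = 0.966), and Agtr1a to Stxbp5l (r = 0.983) and Them4 (r = 0.977). Agtr1a, Stxbp5l and Them4 all read highest on F09 and next on F03. By ranks (Spearman) the correlation of Agtr1a was 0.953 with Stxbp5l and 0.714 with Them4. Stxbp5l read only 3.15 to 3.83. Edn1 was closest to Gm20346 (r = 0.961), which read only 2.94 to 3.73, and Wbp2 (r = 0.957). Ece1 was closest to Amer1 (r = 0.952) and Cplane1 (r = 0.941). Ednrb was closest to Tppp (r = 0.89) and Crk (r = 0.876). The arrays share 1 normalization and a genotype split, and with 9 points and so many genes searched, such values are a description only.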

How the data were processed

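Aorta RNA of 9 samples was hybridised to Affymetrix mouse expression arrays, 1 per sample. The deposited table holds log2 values. GCRMA and MAS5 are named, per the submitters' processing notes, without role or version, and the settings are not given in the sources used here. The log2 values were used as deposited. A floor compresses the spread of dim transcripts, so that small shifts there can look precise. Control probe sets (64) were left out. The platform annotation pairs 34945 probe sets with 1 gene and 932 with several and does not list 9160, and symbols were updated to RefSeq names (GRCm38.p6), which held 34741.

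Genotype was tested with limma 3.58.1 in R 4.3.3 (eBayes with a mean-variance trend), with two-sided p-values adjusted by Benjamini-Hochberg over 45037 probe sets. The scripts were tested on simulated data. Members, lists and the omission of F04 and F05 were chosen with earlier results of these data known. The text names all members, a few further genes in any case, and pathway genes with an unadjusted p under 0.05 and no overlap in the 7 arrays, with the 2 closest genes for each bright member. Alternatives were quantile normalization, centring, no trend, array weights, a brightness filter, one-way ANOVA per probe set, averaging the probe sets of each gene, F01 in BMAL-/-, and each array left out. The number of arrays limits the precision. Plots were drawn with matplotlib 3.10.9.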

Additional observations from a re-analysis of the deposited data

Results flagged for a closer look

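Within each genotype, as labelled, 24 groups of values from the 12 member probe sets were searched for an array far from the others, and 6 were found. The rule used flags about 1 in 20 groups by chance when values are normally distributed. Values at the floor and exact ties depart from that. The share over all probe sets was not computed, so the 6 are not read as an excess. Agt read 2.78 on F08 among BMAL-/- and 2.89 on F09 among BMAL+/+, with the others between 2.25 and 2.38. Agtr1a read 6.68 on F03 among BMAL-/-, with the others between 5.75 and 5.77, and 7.42 on F09 among BMAL+/+, with the others between 5.16 and 5.75. The brightest probe set of Ece1 read 7.71 on F08 among BMAL-/-, with the others from 8.23 to 8.31. A dim probe set of Ednrb read 3.31 on F10 among BMAL+/+, with the others from 2.63 to 2.77.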

How the results depend on the processing

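The difference of Ace kept its sign under each alternative run, from -1.065 to -0.077 as labelled and from -1.33 to -0.982 in the 7 arrays, and so did those of Edn1, Ednrb and Agtr2. As labelled, the Ace value of -0.077 came with array weights, and it was -0.341 with F01 in BMAL-/-, and the cause was not tested. At the clock genes F01 read with the BMAL+/+ arrays F07, F09 and F10 (Arntl 2.76, Npas2 3.37 and Nr1d2 11.69). No member passed as labelled under any alternative. In the 7 arrays 2 members, Ace and Agtr2, passed with array weights and without F08, where 15448 and 16445 probe sets passed. The 4 probe sets called there became 2 after quantile normalization and 2 without F01, F07 or F10. Leaving out 1 array gave 2 to 16445 called probe sets and 0 to 2 called members. Signs turned where differences were near 0. Ece1 was -0.004 with array weights and -0.203 with the mean of its probe sets as labelled, and -0.313 with that mean in the 7 arrays. Agtr1a was -0.002 with F01 in BMAL-/-. With 1 array left out, Agt ran from -0.133 to 0.11, Agtr1a from -0.148 to 0.463 and Ece1 from -0.077 to 0.185 as labelled, and in the 7 arrays Agt ran from -0.166 to 0.147, Agtr1a from -0.182 to 0.618 and Ece1 from -0.055 to 0.278. Above the median brightness Agt and Agtr2 were not tested. No paired analysis was possible because the genotypes share no replicate number. Agt, Agtr2 and Mas1 lie at the floor, where no size is resolved.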

Other observations

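Some deposited values were the same on several arrays to the last digit. This held for 5 of the 12 member probe sets and for 25.4% of all 45037. Agt was 2.282 on F02, F03 and F04, across both genotypes, and Agtr1a was 5.749 on F01 and F04. A dim probe set of Ednrb was 2.652 on F04 and F05. Among probe sets above the median brightness the share was 30.9%.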
